A study of Mus musculus with 8 samples.

Results

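The γδ T cell receptor is built from a γ chain and a δ chain, and 7 genes of these chains were listed in the day 0 comparison of Efhd2f/f Vil1cre/+ and Efhd2f/f colonic intestinal epithelial cells (IECs). They were chosen by name from the 309 genes of that table: the γ constant genes Tcrg-C1, Tcrg-C2 and Tcrg-C4, the γ variable genes Tcrg-V7 and Trgv2, the δ constant gene Trdc and the δ variable gene Trdv5. The table holds only genes that passed the authors' thresholds for a difference between the same libraries (absolute log2 fold change above 1 and adjusted p-value under 0.05). All values of this contrast below are therefore descriptions without a test, and for 2 libraries per genotype the smallest p of an exact two-sided permutation test would be 0.333. The libraries were made from primary IECs. Per the paper, its animal experiments used mice of both sexes at 8 to 10 weeks of age. The sex of the mice behind each library is not given in the sources used here. In Efhd2f/f Vil1cre/+ mice, Cre driven by the villin promoter, which is active in intestinal epithelium, removes the loxP-flanked exon 2 of Efhd2. Efhd2f/f mice carry the same floxed alleles without Cre. Both genotypes were sampled on day 0 without dextran sulfate sodium (DSS) and on day 7, after DSS in the drinking water for 6 days (4 groups of 2 libraries). The sources used here do not say whether a library holds 1 mouse or several, so the spread between libraries may be partly technical.

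A γ or δ chain gene is assembled in a developing T cell by joining a variable segment to a joining segment (and, in the δ chain, diversity segments), and the product is spliced to a constant gene. Cells that carry the assembled receptor live between the epithelial cells of the gut as intraepithelial lymphocytes, where butyrophilin-like proteins of the epithelium help to select and maintain them. IECs were shaken off the opened colon with dithiothreitol and EDTA and strained, and no cell sorting is stated, so RNA of intraepithelial lymphocytes can be present in these libraries. Whether villin-driven Cre acted in any T cells of these preparations was not tested. In bulk RNA, fewer cells of a type and less RNA per cell cannot be told apart.

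The 7 genes lie in both receptor loci of GRCm38. The γ locus spans 174.7 kb of chromosome 13 (19178024 to 19352756) and holds 15 annotated genes in GENCODE M21, of which 5 were listed. The δ genes span 267.7 kb of chromosome 14 (53881612 to 54149294), inside the α locus, and 2 of 11 were listed. The other 19 genes of both loci, among them the γ constant gene Tcrg-C3 and the variable genes Tcrg-V1, Tcrg-V3, Tcrg-V4, Tcrg-V5 and Tcrg-V6, were not listed on day 0, and their levels were not analysed here. Thus 4 of the 5 constant genes of the 2 loci and 3 of the 13 variable genes were listed, and none of the joining or diversity segments, whose exons are very short. Genes were assigned to a locus by symbol. The 13 include the pseudogene Trdv3, and any variable segment with an α symbol is counted with the α and β genes below.

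**Figure D1:**
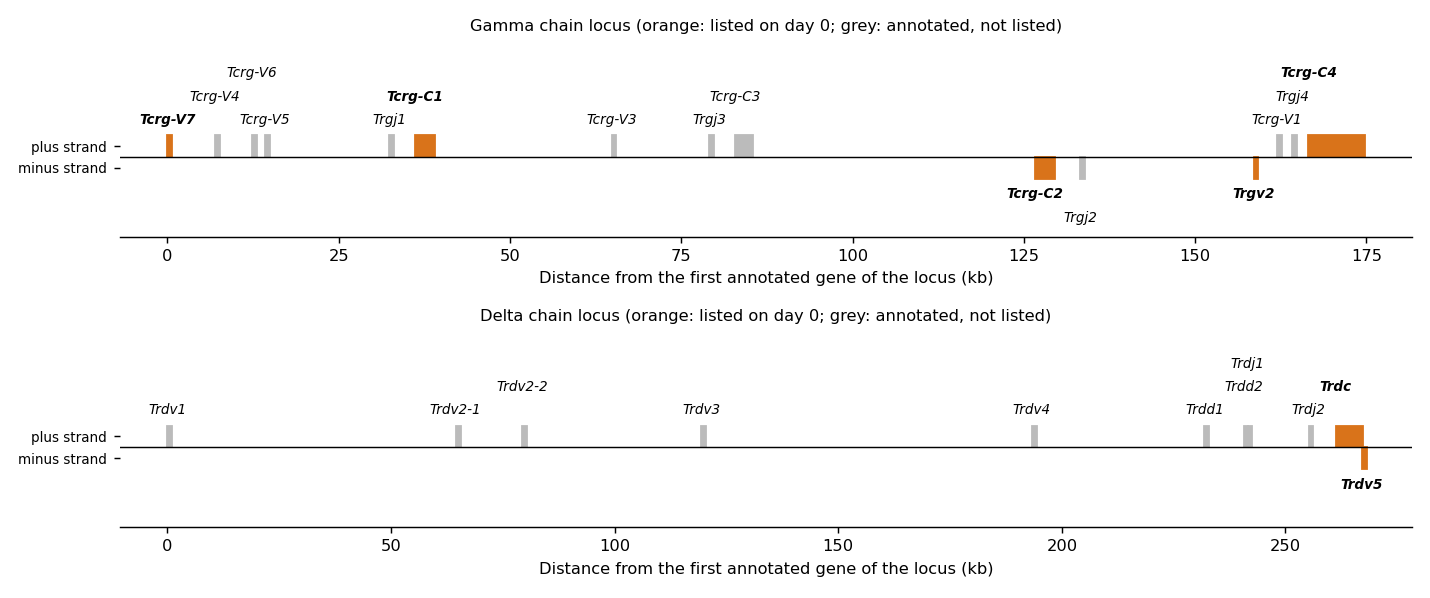
The annotated genes of the γ locus (upper) and δ locus (lower), with the distance in kb from the first gene of each locus on the x axis and the strand on the y axis (plus above the line, minus below). Orange marks the 7 genes listed on day 0, of which Tcrg-C2, Trgv2 and Trdv5 are on the minus strand, and grey the 19 that were not listed.

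Of the γ constant genes, Tcrg-C1 (ENSMUSG00000076749) lies at chr13:19214103-19217024 on the plus strand, Tcrg-C2 (ENSMUSG00000076752) at chr13:19304649-19307551 on the minus strand and Tcrg-C4 at chr13:19344558-19352756 on the plus strand. Their first exons, which encode the immunoglobulin-like domain of the chain, are shown because they set how well reads can be told apart. The first 150 of the 330 bases of each are given 5′ to 3′ from the GENCODE M21 exons on GRCm38 (chr13:19214103-19214252, chr13:19307402-19307551 and chr13:19344558-19344707), with capitals where a base differs from Tcrg-C1.
Tcrg-C1: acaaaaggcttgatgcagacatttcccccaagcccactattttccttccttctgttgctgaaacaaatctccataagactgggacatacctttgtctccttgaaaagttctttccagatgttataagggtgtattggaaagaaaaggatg
Tcrg-C2: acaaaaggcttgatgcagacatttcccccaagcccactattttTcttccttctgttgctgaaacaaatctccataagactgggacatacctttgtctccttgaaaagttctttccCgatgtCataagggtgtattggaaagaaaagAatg
Tcrg-C4: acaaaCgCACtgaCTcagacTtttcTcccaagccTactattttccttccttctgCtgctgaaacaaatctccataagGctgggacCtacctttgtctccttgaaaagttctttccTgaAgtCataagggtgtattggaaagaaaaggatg
Within these 150 bases Tcrg-C2 differed from Tcrg-C1 at 4 positions and Tcrg-C4 at 15. Over the whole exon, Tcrg-C1 and Tcrg-C2 were 97.3% identical (9 of 330 bases different), and Tcrg-C4 was 82.1% identical to Tcrg-C1 (59 different). Of all windows of 50 bases in the transcript, 29.6% of those of Tcrg-C1 and 25.4% of those of Tcrg-C2 occur unchanged in another γ gene, against 0% for Tcrg-C4. With windows of 100 bases the shares were 3.39% and 0.613%. The levels of Tcrg-C1 and Tcrg-C2 are thus uncertain to the extent that shared reads were dropped or split between them or with Tcrg-C3, whereas Tcrg-C4 has no such stretch.

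The variable genes differ in the same way. Tcrg-V7 (chr13:19178024-19178492, plus strand) is the variable segment known from γδ T cells of the intestinal epithelium and lies at one end of the locus, upstream of Tcrg-C1. Trgv2 (chr13:19336573-19337167, minus strand) belongs to the inverted cassette of Tcrg-C2. The first 120 bases of exon 2, the exon that encodes most of the variable domain, are shown for Trgv2 (chr13:19336760-19336879), for its closest relative Tcrg-V1 (chr13:19340151-19340270, not listed), with capitals where Tcrg-V1 differs from Trgv2, and for Tcrg-V7 (chr13:19178186-19178305).
Trgv2: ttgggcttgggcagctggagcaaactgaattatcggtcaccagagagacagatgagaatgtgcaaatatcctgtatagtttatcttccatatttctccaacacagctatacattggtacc
Tcrg-V1: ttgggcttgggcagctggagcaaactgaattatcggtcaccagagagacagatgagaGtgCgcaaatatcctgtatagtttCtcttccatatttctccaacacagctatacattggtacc
Tcrg-V7: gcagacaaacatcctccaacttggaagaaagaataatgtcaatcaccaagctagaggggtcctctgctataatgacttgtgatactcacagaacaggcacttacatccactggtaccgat
Tcrg-V1 differed from Trgv2 at 3 of these positions, and over the aligned exon the 2 genes were 96.1% identical. Identity of Trgv2 to Tcrg-V3 was 94.5%. Of 50-base windows of Trgv2, 7.01% occur in another γ gene. Tcrg-V7 was 49.0% to 57.4% identical to the other γ variable genes and shared no 50-base window with any, so its reads can be assigned to it by sequence.

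On the δ side, Trdc (chr14:54142851-54148868, plus strand) has 4 annotated exons, the last 3403 bases long. Trdv5 (chr14:54148662-54149294, minus strand) lies after Trdc in the opposite orientation, a position from which it joins by inversion. The 2 genes overlap in 207 bases of exon (chr14:54148662-54148868), which are 47.3% of the exon length of Trdv5 and 5.36% of that of Trdc. Neither the library kit nor the methods state that strand was kept, so reads there cannot be told apart. The first 100 bases of exon 2 of Trdv5 lie just outside the overlap (chr14:54148870-54148969, read on the minus strand) and are shown as sequence that is not also in a Trdc exon.
Trdv5: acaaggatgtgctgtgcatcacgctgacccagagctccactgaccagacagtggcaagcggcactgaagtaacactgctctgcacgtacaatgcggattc

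All 7 genes were lower in Efhd2f/f Vil1cre/+ IECs, with both libraries of that genotype below both Efhd2f/f libraries. The same was so for 207 of the 309 listed genes (67%), and since the table was selected on this contrast nothing is read from the count. Summed over the 7 genes, the normalized count was 2197 and 1273 in Efhd2f/f libraries 50 and 52 and 675 and 813 in Efhd2f/f Vil1cre/+ libraries 51 and 53 (the numbers are those the deposited table gives to the libraries). The means were 1735 ± 653 and 744 ± 97.2 (mean ± s.d., n = 2 libraries each), so that Efhd2f/f Vil1cre/+ IECs held 42.9% of the Efhd2f/f level. The groups did not overlap, and library 50 stood above the other 3.

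**Figure D2:**
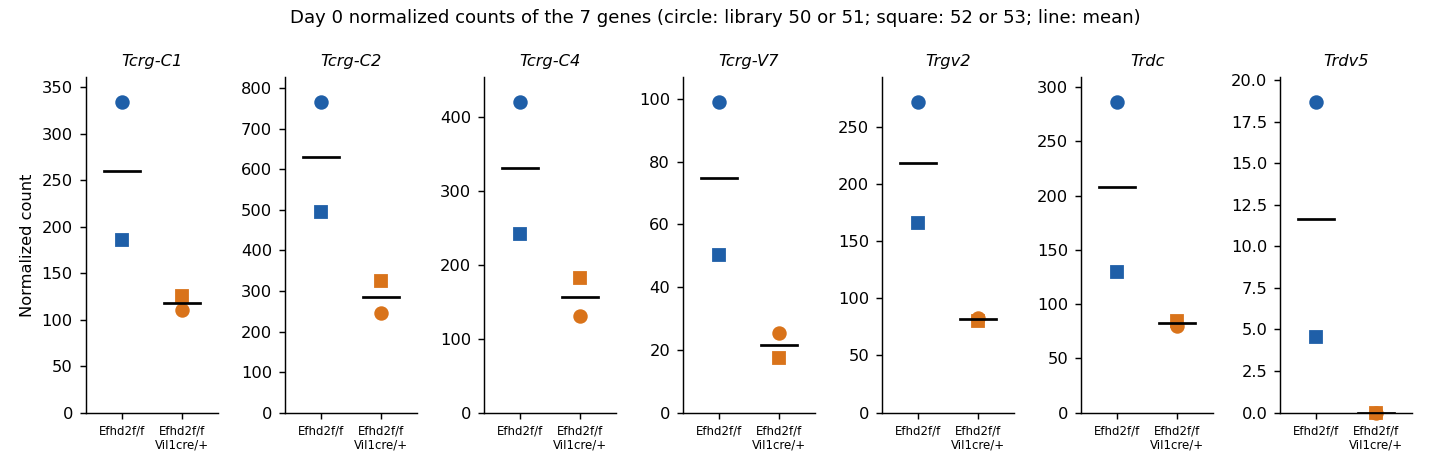
Day 0 normalized counts (y axis, from 0, a separate scale for each gene) of the 7 genes in Efhd2f/f (blue) and Efhd2f/f Vil1cre/+ (orange) libraries, with circles for libraries 50 and 51, squares for 52 and 53, and lines for the mean of 2 libraries. In each panel both orange points lie below both blue points, and library 50 is the highest.

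The γ constant genes carried most of this signal. Tcrg-C2 was at 766 and 495 normalized counts in Efhd2f/f libraries 50 and 52 and at 245 and 324 in Efhd2f/f Vil1cre/+ libraries 51 and 53 (631 ± 192 and 285 ± 55.5, n = 2 each). The difference was -1.13 on log2(normalized count + 1), the scale of all log2 differences given here, which understates differences of genes with low values. Tcrg-C2 was the most abundant of the 7 in every library, and its lowest Efhd2f/f value was 1.53 times its highest Efhd2f/f Vil1cre/+ value. Tcrg-C4 was at 421 and 241 in Efhd2f/f IECs and at 131 and 182 in Efhd2f/f Vil1cre/+ IECs (331 ± 127 and 156 ± 36.2, n = 2 each), a log2 difference of -1.04. This was the difference nearest to 0 among the 7 and the narrowest gap, with library 52 at 1.33 times library 53. Tcrg-C1 was at 334 and 186 against 111 and 125 (260 ± 105 and 118 ± 10.4, n = 2 each), a log2 difference of -1.08. The 3 constant genes thus stood at 45.3% (Tcrg-C1), 45.1% (Tcrg-C2) and 47.2% (Tcrg-C4) of their Efhd2f/f means.

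The make-up of the γ constant signal hardly moved. Summed, the 3 genes were at 1521 and 923 normalized counts in Efhd2f/f libraries and at 487 and 631 in Efhd2f/f Vil1cre/+ libraries. Tcrg-C2 made up 50.4% and 53.7% of that sum in Efhd2f/f libraries 50 and 52 and 50.4% and 51.3% in Efhd2f/f Vil1cre/+ libraries 51 and 53. Tcrg-C4 made up 27.6% and 26.2% against 26.9% and 28.8%. Tcrg-C1 made up 22.0% and 20.2% against 22.7% and 19.8%. For each of the 3 genes the shares of the genotypes overlapped, as did the ratios between any pair of them per kilobase of exon.

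**Figure D3:**
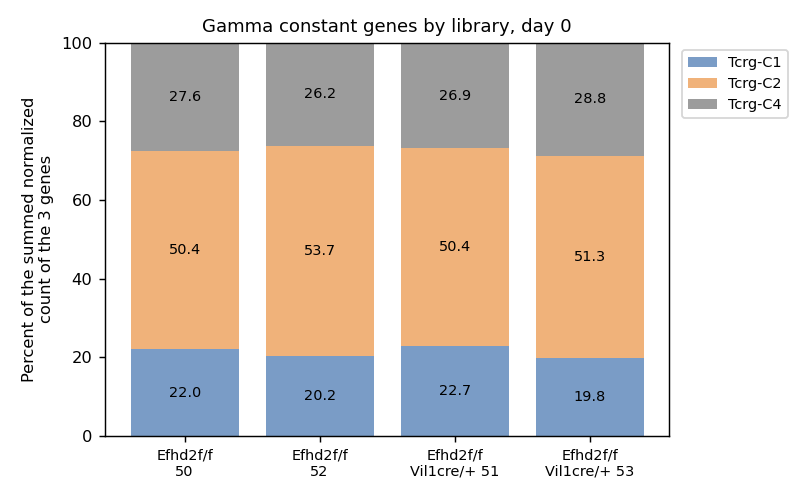
Share (percent, y axis) of Tcrg-C1, Tcrg-C2 and Tcrg-C4 in the summed normalized count of the 3 γ constant genes in each day 0 library (x axis). Tcrg-C2 is between 50.4% and 53.7% in all 4 libraries, and the genotypes overlap for each gene.

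The γ variable genes stood at a smaller share of their Efhd2f/f level than the constant genes, a difference that was not tested. Tcrg-V7 was at 99.1 and 50.3 normalized counts in Efhd2f/f libraries 50 and 52 and at 25.3 and 17.5 in Efhd2f/f Vil1cre/+ libraries 51 and 53 (74.7 ± 34.5 and 21.4 ± 5.52, n = 2 each), a log2 difference of -1.70 and 28.7% of the Efhd2f/f mean. Trgv2 was at 272 and 165 against 83.1 and 79.7 (218 ± 75.1 and 81.4 ± 2.40, n = 2 each), a log2 difference of -1.37 and 37.3% of the Efhd2f/f mean. For both genes the lower Efhd2f/f library was at 1.99 times the higher Efhd2f/f Vil1cre/+ library, the widest gap among the members with counts in all libraries. A variable gene can be set against the constant gene of its cassette, per kilobase of exon. Tcrg-V7 was at 0.744 and 0.679 of Tcrg-C1 in Efhd2f/f libraries and at 0.575 and 0.351 in Efhd2f/f Vil1cre/+ libraries. Here the genotypes did not overlap, although the Efhd2f/f Vil1cre/+ libraries were further from each other than the lower Efhd2f/f library was from the higher Efhd2f/f Vil1cre/+ library. Trgv2 was at 0.660 and 0.621 of Tcrg-C2 against 0.631 and 0.458, and the genotypes overlapped.

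Of the δ genes, Trdc, which encodes the constant part that every δ chain shares, was at 286 and 130 normalized counts in Efhd2f/f libraries 50 and 52 and at 80.1 and 84.4 in Efhd2f/f Vil1cre/+ libraries 51 and 53 (208 ± 111 and 82.2 ± 3.06, n = 2 each). The log2 difference was -1.22. The Efhd2f/f Vil1cre/+ libraries were close to each other, while library 50 was at 2.21 times library 52. Trdv5 was at 18.7 and 4.55 in Efhd2f/f libraries (11.6 ± 9.99, n = 2) and is listed at 0 in both Efhd2f/f Vil1cre/+ libraries, so no fold is given. It is the lowest of the 7, and as the overlap above shows, about as many of its exon bases lie inside Trdc as outside. On the log2 scale its difference of -3.39 depends on the pseudocount of 1, being -6.55 with 0.1 and -1.03 with 10.

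Levels can be compared between genes only per length. Per kilobase of exon, the normalized count in Efhd2f/f IECs was 690 ± 210 for Tcrg-C2, 445 ± 153 for Trgv2, 336 ± 129 for Tcrg-C4, 282 ± 113 for Tcrg-C1, 203 ± 93.7 for Tcrg-V7, 53.8 ± 28.6 for Trdc and 26.5 ± 22.8 for Trdv5 (mean ± s.d., n = 2 libraries). In Efhd2f/f IECs, Tcrg-V7 and Trdc were the neighbours in this order whose ranges did not overlap, and the other neighbours overlapped. The order was the same in Efhd2f/f Vil1cre/+ IECs, at 311 ± 60.7, 166 ± 4.89, 159 ± 36.7, 128 ± 11.3, 58.2 ± 15.0, 21.3 ± 0.791 and 0 normalized counts per kilobase. There the ranges of Trgv2 and Tcrg-C4, and of Tcrg-C4 and Tcrg-C1, overlapped, and the other neighbours were apart. The low value of Trdc rests on an annotated exon length of 3865 bases against 914 to 985 for the γ constant genes.

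The libraries of one genotype also differed from each other. The choice of the 7 genes did not use the sign of that difference. It did use the genotype means, which a high library 50 raises, so the direction is not independent of the selection. In Efhd2f/f IECs all 7 genes were higher in library 50 than in library 52, with a median log2 difference of 0.84 (0.63 for Tcrg-C2 to 1.83 for Trdv5). Over all 309 listed genes, 197 (63.8%) were higher in library 50, with a median of 0.23, and of the 207 genes lower in Efhd2f/f Vil1cre/+ IECs 169 (81.6%) were, with a median of 0.44. In Efhd2f/f Vil1cre/+ IECs, 4 of the 7 genes were lower in library 51 than in library 53, 2 were higher (Tcrg-V7 and Trgv2) and Trdv5 was at 0 in both, with a median of -0.07. Of all listed genes, 176 (57%) were lower in library 51, with a median of -0.08, and of the 207 lower genes 134 were, with a median of -0.20. Most of the lower genes thus shared the direction of the 7 genes in the Efhd2f/f libraries, and nothing is read from the counts of either genotype.

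**Figure D4:**
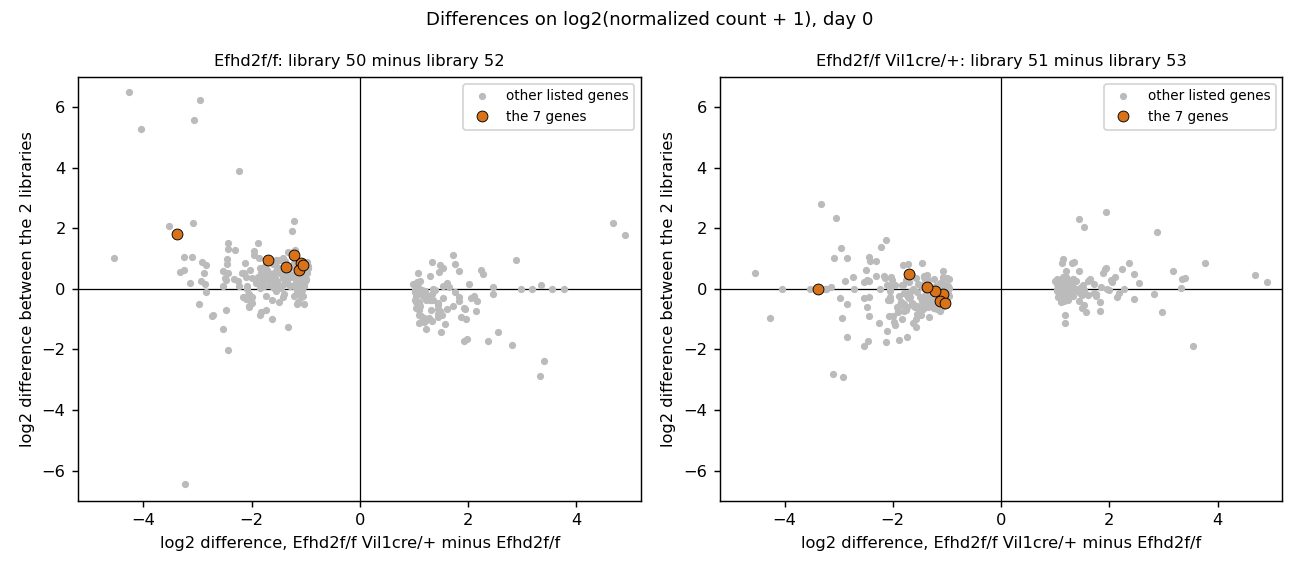
Each listed gene of day 0 by its log2 difference between the genotypes (x axis, Efhd2f/f Vil1cre/+ minus Efhd2f/f) and between the 2 libraries of one genotype (y axis, left for Efhd2f/f, right for Efhd2f/f Vil1cre/+), on log2(normalized count + 1). The 7 genes (orange) lie between 0.63 and 1.83 on the left y axis and between -0.47 and 0.51 on the right, and the other listed genes are grey.

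The step between the control libraries was larger than the gap between the genotypes in most of the genes that allow this comparison. Among the 6 genes with counts in all libraries, the ratio of the lowest Efhd2f/f to the highest Efhd2f/f Vil1cre/+ value exceeded the ratio of library 50 to 52 in 2, Tcrg-V7 (1.99 and 1.97) and Trgv2 (1.99 and 1.64). For Trdc the gap was 1.54 and the step 2.21. Without library 50, the median log2 difference of the 7 genes went from -1.22 to -0.81, and the number of genes with a difference below -1 from 7 to 3 (Tcrg-V7, Trgv2 and Trdv5). Trdc then stood at -0.65, Tcrg-C4 at -0.64 and Tcrg-C1 at -0.66. Without library 51, 4 genes were below -1. Without library 52 the median was -1.73 and all 7 were below -1. All 7 genes stayed below 0 whichever library was left out, which was fixed in advance because the genotypes did not overlap in any of them.

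Among other listed genes of T cells and natural killer (NK) cells most, but not all, ran the same way on day 0. From lists of α and β constant, CD3 and signalling, and intraepithelial T and NK cell genes, 10 further genes were listed. All 10 were lower in both Efhd2f/f Vil1cre/+ libraries, as were 67% of all listed genes, so nothing is read from the count. Their median log2 difference was -1.12, against -1.22 for the 7 genes and -1.17 for all listed genes, which include higher ones. The 207 lower genes had a median of -1.50. Of these 10 genes, 9 were higher in library 50 than in library 52, with a median of 0.71. The share was 63.8% of all listed genes and 81.6% of the 207 lower genes. The exception was Trac, the constant gene of the α chain that αβ T cells use in place of γδ chains, which lies 71.2 kb after the δ genes. Trac was at 263 and 281 normalized counts in Efhd2f/f libraries 50 and 52 and at 112 and 132 in Efhd2f/f Vil1cre/+ libraries 51 and 53 (272 ± 13.1 and 122 ± 14.3, n = 2 each), a log2 difference of -1.16. Per kilobase, Trac was therefore at 3.79 and 8.96 times Trdc in the Efhd2f/f libraries, on either side of the 5.76 and 6.45 of the Efhd2f/f Vil1cre/+ libraries. Trac stood at 44.7% of its Efhd2f/f mean and Trdc at 39.5%. Both passed the authors' fold change threshold in this contrast, which limits the shares a lower gene can have, so nothing is read from their likeness. The higher level of the δ and γ genes in library 50 was not seen in Trac.

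Further lymphocyte genes were listed that are on none of these lists, and 6 of them are named here after their values were seen. Ctla4, which encodes an inhibitory receptor of activated and regulatory T cells, ran the other way, at 59.7 and 120 normalized counts in Efhd2f/f libraries 50 and 52 and at 200 and 198 in Efhd2f/f Vil1cre/+ libraries 51 and 53, a log2 difference of 1.22. Both Efhd2f/f Vil1cre/+ libraries were above both Efhd2f/f libraries, and library 50 was the lowest of the 4, where the 7 genes were highest. The inhibitory receptor gene Lag3, the NK receptor genes Klra5 and Klrc3, Btla and Tnfsf8 were lower in both Efhd2f/f Vil1cre/+ libraries, with log2 differences from -3.32 (Klrc3) to -1.24 (Lag3).

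Of 16 genes of the CD3 complex and proximal signalling, 2 were listed. Cd3d, a CD3 chain that αβ and γδ receptors both need, was at 390 and 208 normalized counts in Efhd2f/f libraries 50 and 52 and at 142 and 141 in Efhd2f/f Vil1cre/+ libraries 51 and 53, 47.3% of its Efhd2f/f mean. Txk, a kinase of the Tec family in T cells, was at 349 and 215 against 108 and 131. Cd3e, Cd3g, Cd247, Lck and Zap70 were not listed. Of 28 genes of intraepithelial T and NK cells, 7 were listed, and their summed normalized count was 4265 and 2534 in Efhd2f/f libraries and 1361 and 1669 in Efhd2f/f Vil1cre/+ libraries. The largest part of that sum was Cd7, a surface protein of T and NK cells, at 1384 and 841 against 477 and 597. Cd160, a receptor of intraepithelial and NK cells, was at 520 and 212 against 121 and 174, and its step between the Efhd2f/f libraries (2.45-fold) was wider than that of Trdc. Xcl1, a chemokine gene of activated lymphocytes, was at 383 and 214 against 77.1 and 114. The log2 differences of Nkg7, Cd244a, Il2rb and Fcer1g, which encode a granule protein, an NK receptor, a chain of the receptor for interleukins 2 and 15, and the Fc receptor γ subunit, were -1.07, -1.08, -0.99 and -1.98. In these 4 genes the Efhd2f/f values ran from 149 to 756 normalized counts and the Efhd2f/f Vil1cre/+ values from 28.4 to 311, and in none did the genotypes overlap. Cd8a, Itgae, Gzma and Gzmb were not listed.

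**Figure D5:**
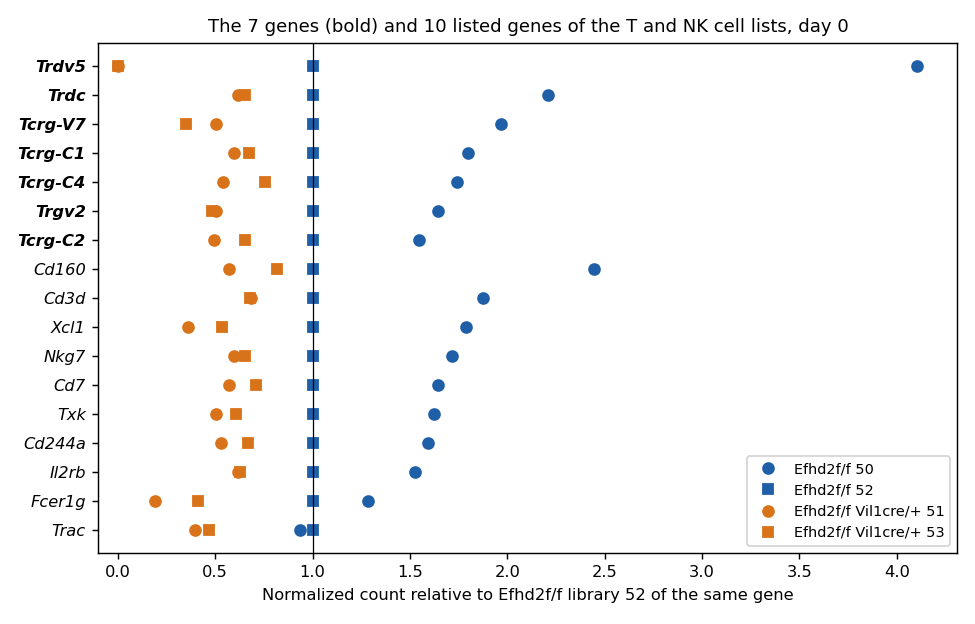
The 7 genes (bold) and the 10 genes listed on day 0 from the T and NK cell lists, with the normalized count of each library relative to Efhd2f/f library 52 of the same gene on the x axis (blue for Efhd2f/f, orange for Efhd2f/f Vil1cre/+, circles for libraries 50 and 51, squares for 52 and 53). Ctla4, which is on none of these lists and was higher in Efhd2f/f Vil1cre/+ IECs, is not plotted. All orange points shown lie left of the line at 1, and library 50 lies right of it for each gene except Trac.

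Further segments of the αβ receptor were scarce. Besides Trac, 2 of the 242 annotated α and β chain genes were listed, the joining segment Trbj2-7 and the variable segment Trbv12-1. Trbj2-7 was at 22.6 and 18.5 normalized counts in Efhd2f/f libraries 50 and 52 and at 2.04 and 5.62 in Efhd2f/f Vil1cre/+ libraries 51 and 53. Trbv12-1 was at 27.5 and 14.3 against 0.0106 and 6.61. Both were low and below in both Efhd2f/f Vil1cre/+ libraries, and the β constant genes Trbc1 and Trbc2 were not listed.

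Markers of other cells that a colonic preparation could hold were taken from lists as well. The 4 of them that were listed on day 0 were lower in both Efhd2f/f Vil1cre/+ libraries, as were 67% of all listed genes. Of 12 B and plasma cell genes 1 was listed, Ighd, the δ heavy chain gene of naive B cells, at 78.5 and 51.3 normalized counts in Efhd2f/f libraries 50 and 52 and at 11.1 and 9.24 in Efhd2f/f Vil1cre/+ libraries 51 and 53. Of 14 myeloid and mast cell genes 1 was listed, Itgax, which encodes CD11c of dendritic cells and some macrophages and T cells, at 270 and 188 against 121 and 94.4. Of 10 stromal, endothelial and red cell genes 2 were listed, the fibroblast gene Dcn at 112 and 131 against 20.3 and 62.5, and the endothelial gene Pecam1 at 140 and 80.7 against 48.7 and 47.3. Ighd, Itgax and Pecam1, like the 7 genes, were higher in library 50 than in library 52, whereas Dcn was not. Genes of these cell classes outside the lists, named after their values were seen, ran both ways. Alas2, the haem synthesis gene of red cell precursors, was higher, at 25.5 and 14.3 normalized counts in Efhd2f/f IECs against 44.6 and 68.8 in Efhd2f/f Vil1cre/+ IECs, and so was the immunoglobulin segment Igkv8-24, at 0.983 and 0.0102 against 19.2 and 4.45. The B lineage genes Ighg2b, Ighv8-12 and Pou2af1 were lower in both Efhd2f/f Vil1cre/+ libraries. The part of non-epithelial cells in the differences of the 7 genes was not tested. None of 13 epithelial genes (among them Epcam, Krt8 and Vil1) was listed, so the label of the cells as IECs could not be checked on these genes. The targeted gene was checked: Efhd2 was at 2663 and 2686 normalized counts in Efhd2f/f libraries and at 556 and 713 in Efhd2f/f Vil1cre/+ libraries, and unlike the 7 genes it was at about the same level in libraries 50 and 52.

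Genes that work with γδ T cells from the epithelial side were absent from the day 0 list. Of 14 such genes, which include the butyrophilin-like genes Btnl1, Btnl4 and Btnl6 and the cytokine genes Il15 and Il7, 0 were listed. Of 19 genes for transcription factors and cytokines of γδ T cells, such as Sox13, Il17a and Ifng, 0 were listed on day 0. Being unlisted shows only that a gene did not pass the authors' thresholds, and its level was not analysed here.

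The listed genes whose profile over the 4 day 0 libraries was most like the mean profile of the 7 genes were sought among the 290 genes that averaged 10 normalized counts or more, by the root mean square distance of log2 values centred on each gene's mean. H2-Eb2, a class II major histocompatibility gene, was nearest at 0.07, with 55.9 and 28.5 normalized counts in Efhd2f/f libraries 50 and 52 and 12.2 and 14.9 in Efhd2f/f Vil1cre/+ libraries 51 and 53. It was followed by Fev, a transcription factor gene of serotonin-producing cells (0.11), Resp18, a gene of endocrine secretory granules (0.12), Tnfrsf9, which encodes the costimulatory receptor 4-1BB (0.12), and Hsd11b1, a glucocorticoid-activating enzyme (0.13). The members themselves lay 0.14 (Trgv2) to 0.96 (Trdv5) from their mean. These 4 libraries are those that chose the genes, so the likeness is a description only.

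On the chromosome, the listed genes nearest to the γ locus were far off, Gpr137b 5784 kb before it and Btn1a1 4104 kb after it. Gpr137b was at 345 and 241 normalized counts in Efhd2f/f libraries 50 and 52 and at 100 and 160 in Efhd2f/f Vil1cre/+ libraries 51 and 53. Btn1a1, a butyrophilin gene, ran the other way, at 10.8 and 13.0 against 34.5 and 57.7, a log2 difference of 1.83. Before Trdc the nearest listed gene was Wdfy4, 20957 kb away, at 82.3 and 70.7 against 30.4 and 28.7. No listed gene that is not a T cell receptor gene lay within either locus.

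On day 7, after DSS, 0 of the 26 γ and δ genes and 0 of the 242 α and β genes were among the 128 listed genes, so the 7 genes have no day 7 value here. Whether their genotype difference itself changed between the days was not tested. Of the 19 genes for transcription factors and cytokines of γδ T cells, 2 were listed, the interleukin 17 genes Il17a and Il17f, which Th17 cells and innate lymphoid cells express as well. Il17a was at 1.61 and 7.65 normalized counts in Efhd2f/f libraries 67 and 68 and at 77.3 and 37.0 in Efhd2f/f Vil1cre/+ libraries 65 and 71 (4.63 ± 4.27 and 57.1 ± 28.5, n = 2 each). Il17f was at 0.820 and 2.19 against 39.6 and 14.4. In both genes the Efhd2f/f Vil1cre/+ libraries were above the Efhd2f/f libraries, with library 65 the highest, and the cells that gave this signal cannot be told apart in bulk RNA. Of the CD3 and signalling list and the list of epithelial partners, 0 genes were listed on day 7. Of the lists of other cells, the myeloid genes S100a8 and S100a9 and the red cell genes Hba-a1, Hba-a2 and Hbb-bs were listed, each above in both Efhd2f/f Vil1cre/+ libraries, and 0 of the B and plasma cell and epithelial lists.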

How the data were processed

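RNA of primary colonic IECs was sequenced in 8 libraries, 2 for each genotype on day 0 and day 7. Per the submitters' processing notes, reads were made with CASAVA 1.8, trimmed with fastp, aligned to GRCm38 (mm10) with HISAT2 2.0.5, counted with featureCounts 1.5.0-p3 and compared with DESeq2 1.20.0. Strand and multimapping settings and read length are not given in the sources used here. The authors deposited a table per day with the signal of each library as a normalized count per gene. The 2 tables were normalized separately and compared within a day only. They also hold the authors' mean of each genotype and the results of their comparison (a log2 fold change with its raw and adjusted p-values), and the latter were not used. Whole reads could not be recovered, and with 309 and 128 selected genes the depth is unknown. The replicate numbers of the labels do not appear in the columns, which carry library numbers.

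Values under 1e-06 were set to 0 (25 on day 0, 14 on day 7). Differences were taken on log2(normalized count + 1), as the mean of the 2 libraries of each genotype, and a gene counted as lower where both libraries lay below both of the other genotype. The 7 genes were chosen from the same contrast, so no test was run. All IDs matched GENCODE M21, with equal coordinates for 294 of 309 and 126 of 128 genes, and exon lengths and sequences were read from it. Members and gene lists were chosen with earlier results of these data known. Named were all members, Efhd2, listed receptor, CD3 and intraepithelial genes, up to 5 genes of each other list, the 5 most alike genes and the nearest listed genes. The steps were tested on simulated data. Alternatives were other pseudocounts (0.1, 10), equal library sums, a mean of at least 50, and each library left out. Python 3.11.15, pandas 2.3.3, numpy 2.4.6, Biopython 1.88 and matplotlib 3.10.9 were used.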

Additional observations from a re-analysis of the deposited data

Results flagged for a closer look

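Fcer1g, the Fc receptor γ subunit gene on the intraepithelial T and NK cell list, lay in opposite directions on the 2 days, with each Efhd2f/f Vil1cre/+ library below both Efhd2f/f libraries on day 0 and above both on day 7. Its log2 difference was -1.98 on day 0 and 1.85 on day 7, when it was at 203 and 214 normalized counts in Efhd2f/f libraries 67 and 68 and at 958 and 596 in Efhd2f/f Vil1cre/+ libraries 65 and 71. The cells that gave this signal cannot be told apart in bulk RNA. The other genes of the lists that were listed on day 7, among them the myeloid genes S100a8 and S100a9, were also above in both Efhd2f/f Vil1cre/+ libraries. The difference between the days was not tested.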

How the results depend on the processing

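Under all alternatives the 7 genes (or those of them that an alternative kept) stayed lower in both Efhd2f/f Vil1cre/+ libraries, and all 60 single-gene differences stayed below 0. These signs were fixed in advance and nothing is read from them. The genotypes did not overlap in any of the 7 genes, and equal library sums scaled the Efhd2f/f Vil1cre/+ libraries down. When 1 library at a time was left out, the median log2 difference ran from -1.73 to -0.81, and the number of genes below -1, a count added after seeing the data, from 3 to 7. Both low ends are without library 50. Equal library sums over the listed genes moved the median of the 7 genes to -1.83, and moved the median of all listed genes by -0.61, since these sums were 150452 and 149389 in Efhd2f/f and 257002 and 205066 in Efhd2f/f Vil1cre/+ libraries. The within-genotype medians moved by less than their spread over the 7 genes under each alternative run on them, that of the Efhd2f/f Vil1cre/+ libraries reaching -0.40 with equal sums. With a mean of at least 50, 5 genes remained, without Tcrg-V7 and Trdv5. Without Trdv5, an alternative chosen after seeing the data, the median was -1.17. No paired analysis was possible because the columns carry no replicate number and no test was run. Depth is unknown, so whether the zeros of Trdv5 lie within counting error cannot be computed.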
